A study of Homo sapiens with 4 samples.

Results

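The genes described here are 35 receptor tyrosine kinases of human cells, taken by name from a list that leaves out the MET, ERBB, EPH and IGF1R groups, of 58825 gene rows counted in each library. They were read in LoVo, a colon adenocarcinoma line whose MET receptor stays uncleaved and is active without its ligand. Of these 35 genes, 20 had enough counts for a test, 2 more reached 3 counts in a library, and 13 stayed under 3 counts in every library. The comparison asks which receptors other than MET are expressed in cells with the active receptor and in cells whose MET gene was knocked out.

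Messenger RNA was counted by QuantSeq 3' sequencing in 4 libraries, 2 biological replicates in each of 2 groups. The MET+ libraries came from LoVo cells with the genotype WT, described as a GFP control, and the MET-KO libraries from LoVo cells with the genotype MET knock out. Both were grown in DMEM with serum, and no other treatment is given. The knock-out was made with CRISPR/Cas9, puromycin selection and the picking of clones that were then chosen by Western blot. Whether both MET-KO libraries come from 1 clone is not given in the sources used here, so the p-values measure the spread between these cultures only, and an effect of the knock-out and a property of a picked clone cannot be told apart.

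A receptor tyrosine kinase spans the cell membrane, binds a secreted or matrix-bound ligand on the outside and carries a tyrosine kinase domain on the inside. Ligand binding pairs the receptors, the kinase domains phosphorylate each other, and adaptor proteins that dock on the phosphorylated tyrosines lead to the RAS and ERK, PI3 kinase and phospholipase C pathways. Colon epithelium uses several of these receptors for growth, adhesion to collagen and WNT-driven polarity, whereas others are known from endothelium, blood cells, muscle or neurons. AXL and the FGF receptors are known to signal beside MET in tumour cells through the same adaptors.

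Levels are given in CPM, the usual library-scaled count, here with the TMM-scaled library total as its base. With QuantSeq a transcript gives a fragment near its poly(A) end, so CPM values were compared between genes without division by length. The libraries held 8429142 to 10286552 counts, and 3 counts, the limit used for a gene at 0, equalled 0.276 to 0.363 CPM. Adjusted p-values throughout come from the quasi-likelihood test of edgeR, adjusted after Benjamini and Hochberg over all 13801 genes tested, and the threshold was 0.05. Of all genes tested, 54.1% passed it, 27.2% as higher and 26.9% as lower in MET-KO cells. This wide background has to be read beside every count of receptors. An SE beside a log2 fold change was derived from the same test and is not a fitted error. It is the absolute log2 fold change divided by the square root of the F statistic.

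The labels were checked against MET and against marker genes. MET had 2794 and 3272 counts in MET+ and 861 and 965 in MET-KO cells, a log2 fold change of -1.96 (SE 0.09, adjusted p = 1.49e-18). MET transcripts were thus lower but still counted in both MET-KO libraries. Markers of colon epithelium summed to 9654 and 9688 CPM in MET+ against 8321 and 7337 CPM in MET-KO cells, and of the 10 genes only CDX1 was at 0 in all libraries. KRT18 alone gave 6020 and 4879 CPM of the group means, and the markers differed in direction. LGALS4 had 89 and 107 counts in MET+ and 1 in each MET-KO library and EPCAM 3638 and 4245 against 1988 and 2291, whereas CDX2 had 525 and 648 against 1477 and 1338. The 7 Y-chromosome genes checked had 0 counts in both MET+ libraries and 6539 counts in each MET-KO library. This difference between the groups cannot be told apart from the knock-out in any result given here.

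The promoter sequences of the receptors with the 3 largest rises and the 2 largest falls are shown because their transcripts changed most. Each runs 5′ to 3′ over 300 bases, from 250 bases before a RefSeq start to 50 bases after it, on GRCh38.p14. Capitals mark matches, on either strand, to the TEAD motif GGAATG, the AP-1 motif TGANTCA or the GC box GGGCGG. Reads at the 3′ end do not tell which start was used. AXL is shown at both of its windows and ROR1 at its only one, whereas FGFR2, RET and NTRK2 have 5, 2 and 4 windows in the table and are shown at the first listed.
AXL, first start, chr19:41218973-41219272, plus strand: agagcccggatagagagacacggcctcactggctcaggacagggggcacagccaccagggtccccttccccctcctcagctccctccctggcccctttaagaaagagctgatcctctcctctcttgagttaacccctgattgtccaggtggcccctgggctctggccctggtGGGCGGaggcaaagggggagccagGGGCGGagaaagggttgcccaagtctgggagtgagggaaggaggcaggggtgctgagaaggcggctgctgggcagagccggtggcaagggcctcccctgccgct
AXL, second start, chr19:41226505-41226804, plus strand: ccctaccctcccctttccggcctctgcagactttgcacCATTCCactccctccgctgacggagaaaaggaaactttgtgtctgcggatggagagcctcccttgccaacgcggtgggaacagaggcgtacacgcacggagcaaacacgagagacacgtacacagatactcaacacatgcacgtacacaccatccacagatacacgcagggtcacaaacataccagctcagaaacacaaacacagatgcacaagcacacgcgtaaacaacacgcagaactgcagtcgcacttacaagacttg
ROR1, chr1:63773767-63774066, plus strand: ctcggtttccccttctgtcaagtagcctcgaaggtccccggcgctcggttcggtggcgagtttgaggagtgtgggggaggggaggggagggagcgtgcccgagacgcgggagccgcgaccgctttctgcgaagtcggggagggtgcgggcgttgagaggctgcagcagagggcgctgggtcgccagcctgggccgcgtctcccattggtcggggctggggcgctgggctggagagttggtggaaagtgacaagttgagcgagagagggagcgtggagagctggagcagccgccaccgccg
FGFR2, chr10:121598395-121598694, minus strand: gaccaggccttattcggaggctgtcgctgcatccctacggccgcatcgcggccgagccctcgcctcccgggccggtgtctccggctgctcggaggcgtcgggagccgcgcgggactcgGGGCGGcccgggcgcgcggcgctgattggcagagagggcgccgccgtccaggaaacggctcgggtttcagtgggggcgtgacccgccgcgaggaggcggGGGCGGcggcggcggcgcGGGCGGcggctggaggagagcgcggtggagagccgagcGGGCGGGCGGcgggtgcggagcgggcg
RET, chr10:43076819-43077118, plus strand: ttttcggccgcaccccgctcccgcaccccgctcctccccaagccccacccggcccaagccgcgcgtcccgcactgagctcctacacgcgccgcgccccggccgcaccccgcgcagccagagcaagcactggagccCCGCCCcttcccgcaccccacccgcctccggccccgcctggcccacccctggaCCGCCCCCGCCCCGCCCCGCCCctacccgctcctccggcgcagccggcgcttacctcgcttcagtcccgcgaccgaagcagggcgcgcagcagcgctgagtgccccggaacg
NTRK2, chr9:84669056-84669355, plus strand: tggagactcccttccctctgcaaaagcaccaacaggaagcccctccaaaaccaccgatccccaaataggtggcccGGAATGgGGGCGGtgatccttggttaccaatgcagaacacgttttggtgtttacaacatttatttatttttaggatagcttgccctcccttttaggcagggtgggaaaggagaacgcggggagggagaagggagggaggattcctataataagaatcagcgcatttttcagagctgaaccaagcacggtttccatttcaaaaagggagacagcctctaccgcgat

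These windows differed in base composition. GC content was 79.3% in the FGFR2 window shown and 78.7% in the RET window shown, against a median of 58.7% over 35116 promoter windows. The other windows of FGFR2 had 47.3 to 50.7% GC, and the second RET window had 58.7%. The FGFR2 and RET windows shown each held 5 GC boxes, and their other windows at most 1. A TEAD match stood in 1 of 2 windows of AXL, 2 of 5 of FGFR2 and 2 of 4 of NTRK2, the first pair being receptors that rose and NTRK2 a receptor that fell. The ROR1 window held none of the 3 motifs. Over the 56 windows of 31 receptors, 12.5% held a TEAD match, 8.93% an AP-1 match and 53.6% a GC box. Over all windows these shares were 14.0%, 7.71% and 45.0%. Windows on chromosome 8, where FGFR1 lies, were left out of the receptor shares but not of those of all windows. A match describes the letters only, and no match to a motif overlapped a match to another motif in the windows shown.

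Of the 20 receptors tested, 9 were higher and 6 were lower in MET-KO cells and 5 did not pass the threshold. The higher receptors were FGFR1, FGFR2, FGFR3, ROR1, RYK, PTK7, MERTK, AXL and LTK, and the lower ones FGFR4, FLT1, INSR, TYRO3, NTRK2 and RET. The called share was 75.0% of the tested receptors, beside the 54.1% of all genes tested. Receptors such as AXL, LTK and RET passed the low-count filter only through the group where they were high, so this share is a description and not evidence about the list. The MET+ and MET-KO values did not overlap for 18 of the 20 receptors, against 75.6% of all genes. The median log2 fold change of the tested receptors was 0.09 (0.01 for all genes tested), and the median of its absolute size was 0.996 (0.483 for all genes tested).

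**Figure D1:**
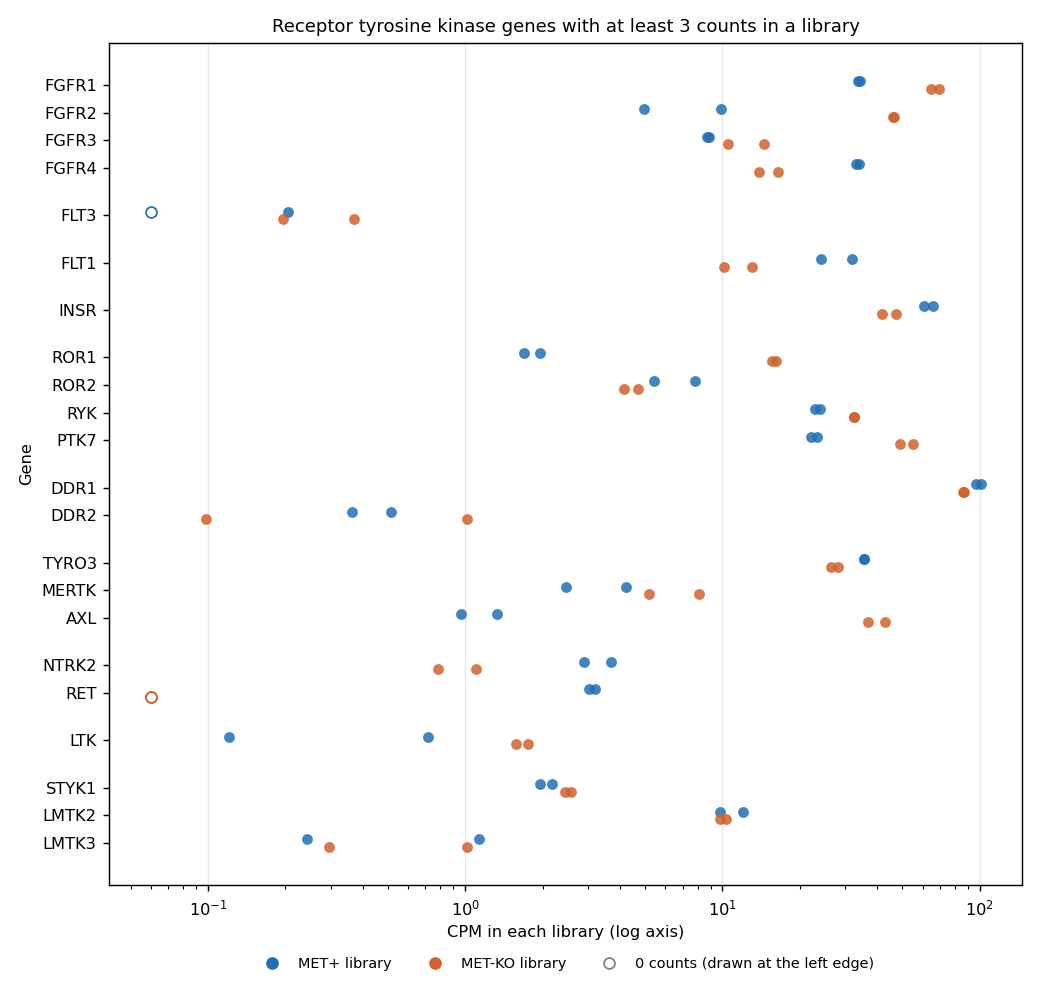
CPM of each receptor with at least 3 counts in a library, on a log axis, grouped by family. Each point is a library, blue for MET+ and orange for MET-KO, and open points at the left edge are 0 counts. AXL stands at 0.967 and 1.33 CPM in MET+ against 42.8 and 36.9 CPM in MET-KO cells, while DDR1 is the highest receptor in all 4 libraries.

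With a limit of 1 CPM in both libraries of a group, 19 of the 35 receptors were expressed in either state. Both states shared 15 of them. NTRK2 and RET passed the limit only in MET+ cells, and AXL and LTK only in MET-KO cells. AXL lay near the limit in MET+ cells (0.967 and 1.33 CPM) and NTRK2 near it in MET-KO cells (0.784 and 1.11 CPM). At 0.5 CPM only RET and LTK belonged to a single state. At 2 CPM LTK (1.57 and 1.75 CPM in MET-KO cells) passed in neither state. NTRK2 and RET then passed only in MET+ cells, and ROR1, AXL and STYK1 only in MET-KO cells. All receptors together summed to 382 and 397 CPM without the knock-out and to 479 and 478 CPM with it. The sums did not overlap, and 2 libraries against 2 cannot give an exact permutation p below 0.333.

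DDR1 was the highest receptor transcript in both states, at 98.8 ± 3.22 CPM in MET+ against 86.5 ± 0.212 CPM in MET-KO cells (SD, n = 2). In MET+ cells INSR (63.3 CPM) and TYRO3 (35.5 CPM) followed, and then FGFR1 (34.0 CPM) and FGFR4 (33.5 CPM), whose values overlapped. In MET-KO cells FGFR1 (67.0 CPM) and PTK7 (52.0 CPM) came next, and then FGFR2 (46.2 CPM), INSR (44.5 CPM) and AXL (39.8 CPM), in which each neighbour overlapped with the next. FGFR2 and AXL thus moved from places 11 and 18 of the order to places 4 and 6.

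The FGF receptors bind fibroblast growth factors with heparan sulfate. All 4 genes were expressed in both states, and all 4 passed the test, FGFR1, FGFR2 and FGFR3 as higher and FGFR4 as lower in MET-KO cells. FGFR2 (ENSG00000066468, chr10:121478334-121598458) had 41 and 96 counts in MET+ and 468 and 504 in MET-KO cells, or 4.95 and 9.85 against 45.9 and 46.4 CPM. Both MET-KO libraries were far above both MET+ libraries, although the MET+ libraries also differed from each other. The log2 fold change was 2.61 (SE 0.18, adjusted p = 3.48e-14), and it was 2.23 without MET+ replicate 1 and 3.21 without MET+ replicate 2. FGFR1 (ENSG00000077782, chromosome 8) had 284 and 328 counts in MET+ and 660 and 753 in MET-KO cells, or 34.3 and 33.7 against 64.7 and 69.3 CPM. The replicates of FGFR1 lay close together and the groups were well apart, with a log2 fold change of 0.98 (SE 0.11, adjusted p = 6.30e-09). The antisense gene LETM2 overlaps FGFR1, and no gene that overlaps it had more than 41 counts over the 4 libraries.

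FGFR4, which binds FGF19 together with beta-klotho in liver and gut, went the other way. Its counts were 273 and 332 in MET+ and 168 and 151 in MET-KO cells, or 33.0 and 34.1 against 16.5 and 13.9 CPM (ENSG00000160867, chr5:177086886-177098144). The MET-KO values were all below the MET+ values and the log2 fold change was -1.14 (SE 0.15, adjusted p = 6.54e-08). FGFR3 (ENSG00000068078, chr4:1793293-1808872) had 72 and 86 counts in MET+ and 107 and 158 in MET-KO cells, or 8.70 and 8.83 against 10.5 and 14.6 CPM. Its groups did not overlap, but the MET-KO replicates differed more from each other than the lower of them did from MET+ cells. The log2 fold change of FGFR3 was 0.52 (SE 0.21, adjusted p = 0.0406), and the adjusted p was 0.0646 without MET+ replicate 1, 0.0760 without MET+ replicate 2, 0.475 without MET-KO replicate 2 and 0.161 with DESeq2.

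As a share of all FGF receptor counts, FGFR1 was 40.7 ± 2.43% in MET+ and 47.6 ± 0.737% in MET-KO cells and FGFR4 was 40.1 ± 0.931% and 10.8 ± 1.65% (SD, n = 2). FGFR2 made up 8.76 ± 3.73% in MET+ and 32.8 ± 0.830% in MET-KO cells. FGFR1 and FGFR4 were thus present at like levels in MET+ cells, and FGFR1 and FGFR2 together held most FGF receptor counts in MET-KO cells.

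The TAM receptors TYRO3, AXL and MERTK bind GAS6, and TYRO3 and MERTK also bind protein S (PROS1). AXL (ENSG00000167601, chr19:41219203-41261766) had 8 and 13 counts in MET+ and 436 and 401 in MET-KO cells, or 0.967 and 1.33 against 42.8 and 36.9 CPM. It was close to the limit of expression in MET+ cells and among the 6 highest receptors in MET-KO cells. The log2 fold change of 5.08 (SE 0.24, adjusted p = 6.36e-19) was the largest rise among the receptors and stood at percentile 97.8 of the log2 fold changes of all genes tested. It was 4.89 to 5.34 when each library was left out in turn, and the 158 tested genes within 5 Mb of AXL had a median log2 fold change near 0.

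TYRO3 (ENSG00000092445, chr15:41557675-41583586) had 295 and 345 counts in MET+ and 288 and 288 in MET-KO cells, or 35.7 and 35.4 against 28.2 and 26.5 CPM. It was modestly lower in both MET-KO libraries, with a log2 fold change of -0.38 (SE 0.13, adjusted p = 0.0148). The call was lost without MET-KO replicate 2 (adjusted p = 0.111), with library totals as the only scaling (adjusted p = 0.0984) and with DESeq2 (adjusted p = 0.0791). MERTK (ENSG00000153208, chr2:111898479-112029561) had 35 and 24 counts in MET+ and 53 and 88 in MET-KO cells, or 4.23 and 2.46 against 5.20 and 8.10 CPM. Its groups lay close together, with a log2 fold change of 1.01 (SE 0.33, adjusted p = 0.00909). The adjusted p was 0.105 without MET+ replicate 2 and 0.240 without MET-KO replicate 2, the log2 fold change then being 0.65 in both cases, and 0.0604 with DESeq2. TYRO3 held 88.8 ± 2.15% of the TAM counts in MET+ cells, and in MET-KO cells AXL held 53.9 ± 3.19% and TYRO3 37.1% (SD, n = 2, TYRO3 having equal shares in both libraries).

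Among the receptors that bind WNT proteins, ROR1, RYK and PTK7 were higher in MET-KO cells. ROR1 and ROR2 are receptors for WNT5A, and RYK is a WNT receptor too. RYK and PTK7 carry kinase domains without activity and act in planar cell polarity and axon guidance. ROR1 (ENSG00000185483, chr1:63774022-64181498) had 14 and 19 counts in MET+ and 164 and 169 in MET-KO cells, or 1.69 and 1.95 against 16.1 and 15.6 CPM. Both replicates of each group were close, and the groups were far apart. The log2 fold change was 3.10 (SE 0.27, adjusted p = 8.32e-12), at percentile 96.2 of all genes tested. PTK7 (ENSG00000112655, chr6:43076268-43161719) had 182 and 228 counts in MET+ and 561 and 533 in MET-KO cells, or 22.0 and 23.4 against 55.0 and 49.1 CPM. PTK7 was more abundant in both MET-KO libraries, with a log2 fold change of 1.19 (SE 0.13, adjusted p = 9.13e-10).

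RYK (ENSG00000163785, chr3:134065303-134250744) had 190 and 233 counts in MET+ and 331 and 351 in MET-KO cells, or 23.0 and 23.9 against 32.5 and 32.3 CPM. The replicates nearly coincided, and the rise was small, with a log2 fold change of 0.47 (SE 0.14, adjusted p = 0.00447). ROR2 (ENSG00000169071, chr9:91563091-91950162) had 45 and 76 counts in MET+ and 48 and 45 in MET-KO cells, or 5.44 and 7.80 against 4.71 and 4.14 CPM. Its groups did not overlap, but the log2 fold change of -0.59 (SE 0.29, adjusted p = 0.0836) did not pass the threshold. Without MET+ replicate 1 it did, at -0.82 (adjusted p = 0.0184), so the call of ROR2 depends on a single library. MUSK, the agrin receptor of the neuromuscular junction, was at 0 counts in all 4 libraries. ROR2 had more counts than ROR1 in both MET+ libraries and fewer in both MET-KO libraries, at 12.1 and 3.33% of the counts of this family in MET+ and 4.22 and 15.1% in MET-KO cells.

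DDR1 and DDR2 are receptors for fibrillar and other collagens, DDR1 being the form of epithelium. DDR1 (ENSG00000204580, chr6:30876421-30900156) had 799 and 985 counts in MET+ and 884 and 938 in MET-KO cells, or 96.6 and 101 against 86.7 and 86.4 CPM. The MET-KO values lay slightly below the MET+ values without overlap, and the log2 fold change of -0.19 (SE 0.10, adjusted p = 0.0987) did not pass the threshold. DDR2 had 3 and 5 counts in MET+ and 1 and 11 in MET-KO cells, too few for a test.

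INSR (ENSG00000171105, chr19:7112255-7294034), the insulin receptor, had 501 and 643 counts in MET+ and 426 and 513 in MET-KO cells, or 60.5 and 66.0 against 41.8 and 47.2 CPM. Both MET-KO libraries were below both MET+ libraries, and the log2 fold change was -0.51 (SE 0.11, adjusted p = 0.000277). INSR was the second most abundant receptor in MET+ cells and shared a range with FGFR2 and AXL in MET-KO cells. INSRR, a related receptor that responds to alkaline pH, was at 0 in all libraries.

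FLT1 (ENSG00000102755, chr13:28300344-28495145), which binds VEGFA, VEGFB and PGF, was the only VEGF receptor with counts. It had 264 and 235 counts in MET+ and 133 and 110 in MET-KO cells, or 31.9 and 24.1 against 13.0 and 10.1 CPM. FLT1 was lower in both MET-KO libraries, with a log2 fold change of -1.27 (SE 0.18, adjusted p = 1.94e-07). KDR and FLT4, the main VEGF receptors of blood and lymph endothelium, were at 0 in all libraries. The 6 endothelial markers summed to 2.54 and 1.75 CPM in MET+ and to 0.294 and 0.184 CPM in MET-KO cells, with CDH5, CLDN5 and EMCN at 0 in all libraries. FLT1 stood above these sums in every library. All libraries came from cultures of the LoVo line, and the cause of the lower FLT1 values was not tested.

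RET (ENSG00000165731, chr10:43077027-43130351), the receptor for the GDNF family with GFRA co-receptors, had 25 and 31 counts in MET+ and 0 in both MET-KO libraries. These were 3.02 and 3.18 CPM in MET+ cells, and 3 counts would have been 0.294 and 0.276 CPM in the MET-KO libraries. RET was therefore at least 10.9-fold lower in MET-KO cells, taking 3 counts in each MET-KO library as the limit (adjusted p = 1.10e-07). Of the other listed receptors, none tested was at 0 in either group. NTRK2 (ENSG00000148053, chr9:84668551-85027070), the receptor for BDNF and NTF4, had 24 and 36 counts in MET+ and 8 and 12 in MET-KO cells, or 2.90 and 3.70 against 0.784 and 1.11 CPM. It was low in both states and lower in both MET-KO libraries, with a log2 fold change of -1.79 (SE 0.47, adjusted p = 0.00151). NTRK3 was at 0 in all libraries. Of the neuronal genes RBFOX3 and SNAP25, the former was at 0 in all libraries, and the latter had 0 and 0 counts in MET+ and 93 and 91 in MET-KO cells.

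LTK (ENSG00000062524, chr15:41503638-41513887), a receptor for the ALKAL proteins, had 1 and 7 counts in MET+ and 16 and 19 in MET-KO cells, or 0.121 and 0.719 against 1.57 and 1.75 CPM. The groups did not overlap at these low counts, and the log2 fold change was 1.88 (SE 0.64, adjusted p = 0.0129). The adjusted p was 0.183 without MET+ replicate 1, where the log2 fold change was 1.20, 0.0934 without MET-KO replicate 1, 0.136 without MET-KO replicate 2 and 0.101 with DESeq2. Without MET+ replicate 2, which leaves the MET+ library with 1 count, the log2 fold change was 3.64. ALK had 1 count in a single MET-KO library and ROS1 none.

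STYK1 and the lemur kinases LMTK2 and LMTK3 have kinase domains with little or no part outside the cell and no known ligand. STYK1 had 18 and 19 counts in MET+ and 25 and 28 in MET-KO cells (log2 fold change 0.29, SE 0.42, adjusted p = 0.591). LMTK2 had 81 and 117 counts in MET+ and 105 and 106 in MET-KO cells (log2 fold change -0.13, SE 0.21, adjusted p = 0.636). LMTK3 had 2 and 11 counts in MET+ and 3 and 11 in MET-KO cells (log2 fold change -0.11, SE 0.71, adjusted p = 0.915), and it overlaps a gene on the same strand with 90 counts in all. None of the 3 passed the threshold, and for LMTK2 and LMTK3 the groups overlapped and the sign changed with the libraries used.

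The other receptors gave next to no counts. KIT, CSF1R, KDR, FLT4, INSRR, MUSK, NTRK3, ROS1 and TEK were at 0 in all 4 libraries, and PDGFRA, PDGFRB, ALK and TIE1 had at most 1 count in any library. FLT3 had 0 and 2 counts in MET+ and 2 and 4 in MET-KO cells. PDGFRA and PDGFRB mark fibroblasts and pericytes, KIT mast cells and pacemaker cells of the gut, CSF1R and FLT3 blood cells, and TEK and TIE1 endothelium. The 6 blood and myeloid markers summed to 6.16 and 9.96 CPM in MET+ against 0.981 and 1.11 CPM in MET-KO cells, with PTPRC and SPI1 at 0 in all libraries and LYZ at 38 and 79 against 3 and 1 counts. The 6 fibroblast markers summed to 2.05 and 1.54 CPM in MET+ against 3.82 and 4.24 CPM in MET-KO cells, with COL1A2 and DCN at 0 in all libraries and COL3A1 at 4 and 5 against 24 and 26 counts. A count of 0 allows a level of up to 0.276 to 0.363 CPM, the value of 3 counts in these libraries.

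**Figure D2:**
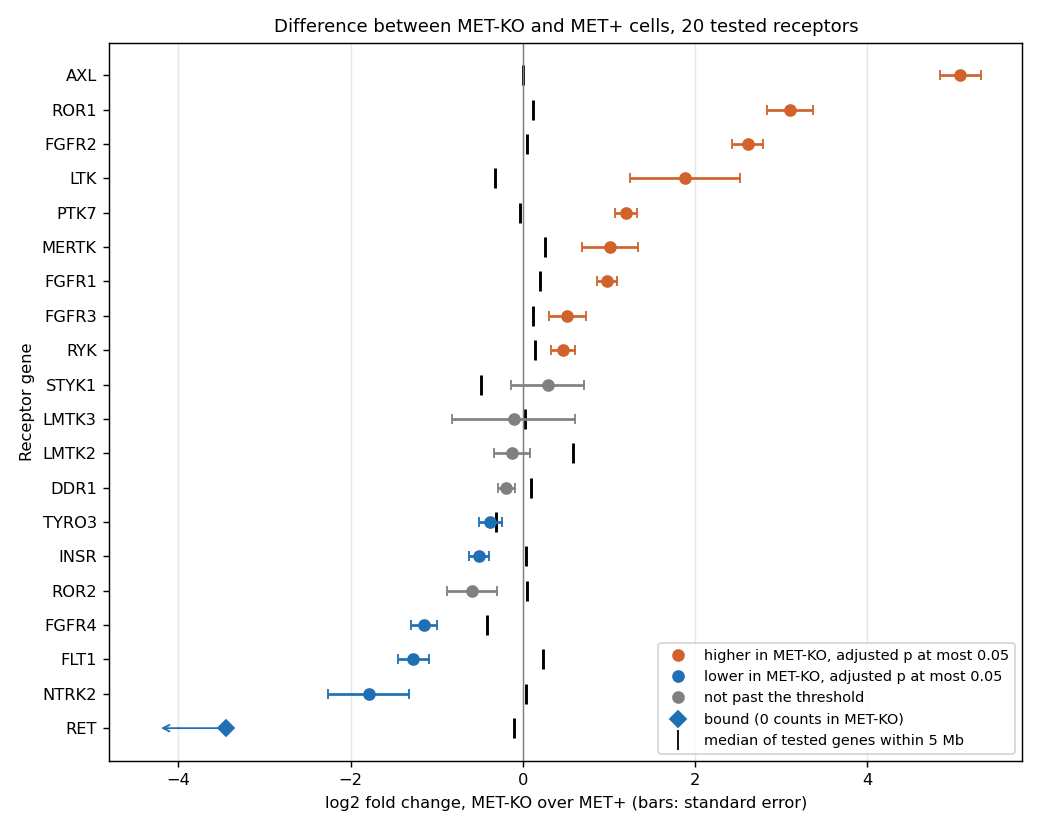
Log2 fold change of MET-KO over MET+ for the 20 tested receptors, with bars for the SE derived from the F statistic of the test. Colours give the call at an adjusted p of 0.05, the diamond for RET is its bound (0 counts in MET-KO cells) with an arrow to lower values, and black ticks are the median of the tested genes within 5 Mb. AXL, ROR1 and FGFR2 stand at 5.08, 3.10 and 2.61, each far from its neighbours' median.

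Some receptors lie where the neighbouring genes moved as a group. Within 5 Mb of FGFR4 the median log2 fold change of 88 tested genes was -0.42, and over chromosome 5 it was -0.43, and FGFR4 differed from its neighbours' median by -0.73. TYRO3 and LTK share a stretch of chromosome 15, a chromosome with a median of -0.43. The 102 tested genes around TYRO3 had a median of -0.31, and TYRO3 differed from it by -0.07 only. LTK, in the same stretch, lay above its neighbours by 2.20. LMTK2 lies on chromosome 7 (median 0.50), and it stood at -0.71 relative to the 96 tested genes around it. STYK1 lies on chromosome 12 (median -0.32). The 86 tested genes around STYK1 had a median of -0.49, and STYK1 lay above it by 0.77. Around AXL, ROR1, FGFR2, PTK7 and RET the medians were between -0.10 and 0.12. The part of these regional differences in the receptors' values was not tested.

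The ligands and co-receptors of these receptors were taken as a list of 72 genes. Of these, 33 were tested, and 19 were higher, 6 lower and 8 not past the threshold in MET-KO cells. That is 75.8% called, with a median log2 fold change of 0.64, beside 54.1% and 0.01 for all genes tested. The list includes genes such as PTN that passed the low-count filter only through the group where they were high.

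WNT5A, a ligand of ROR1 and ROR2, had 10 and 30 counts in MET+ and 2130 and 2438 in MET-KO cells. In CPM, WNT5A stood at 2.14 ± 1.32 against 217 ± 11.1 (SD, n = 2). It went from a minor transcript to a level above every receptor described here, with a log2 fold change of 6.60 (SE 0.17, adjusted p = 5.68e-26). The log2 fold change was 6.13 without MET+ replicate 1 and 7.46 without MET+ replicate 2. Its relative WNT5B had 92 and 106 counts in MET+ and 23 and 14 in MET-KO cells, a log2 fold change of -2.63 (SE 0.31, adjusted p = 7.23e-09). WNT5A and WNT5B thus differed in direction, WNT5B being the more abundant in MET+ and WNT5A in MET-KO cells. WNT5B lies on a stretch of chromosome 12 whose tested genes had a median of -0.55. WNT11 had a log2 fold change of 0.61 (SE 0.26, adjusted p = 0.0448), and its call was lost whichever library was left out (adjusted p = 0.0731 to 0.210).

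**Figure D3:**
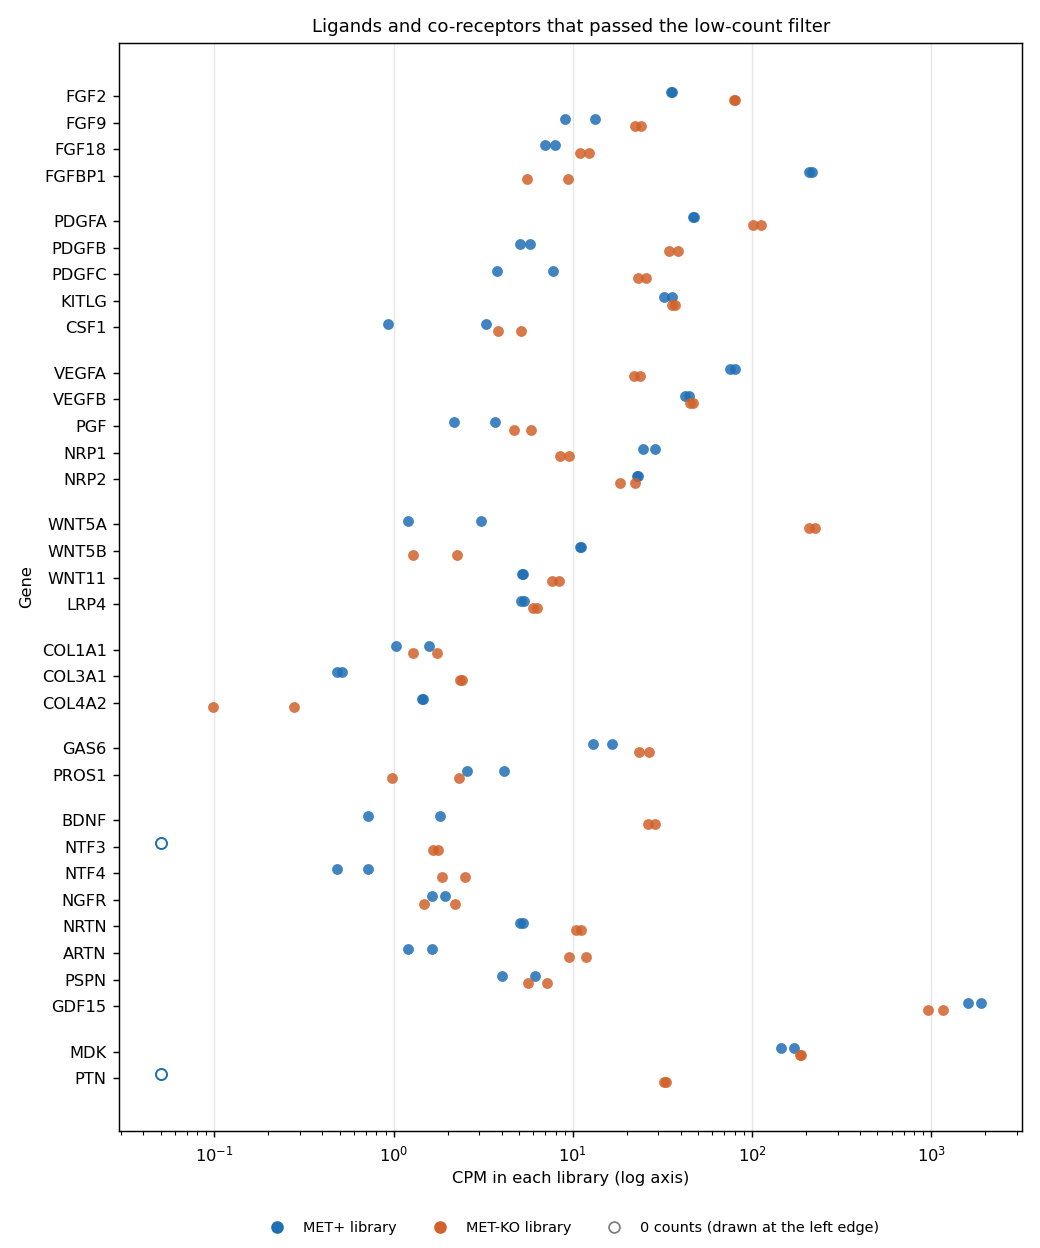
CPM of the 33 ligands and co-receptors that were tested, on a log axis, grouped by receptor family. Points are libraries, blue for MET+ and orange for MET-KO, and open points at the left edge are 0 counts. WNT5A, BDNF and PTN are far higher and FGFBP1, VEGFA and NRP1 lower in both MET-KO libraries.

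For the FGF receptors, the ligands FGF2, FGF9 and FGF18 were higher and the carrier FGFBP1 was lower in MET-KO cells. FGF2 had 295 and 345 counts in MET+ and 807 and 876 in MET-KO cells, with a log2 fold change of 1.17 (SE 0.11, adjusted p = 6.29e-11), and overlaps the antisense gene NUDT6. FGF9 had 75 and 129 counts in MET+ and 246 and 242 in MET-KO cells (log2 fold change 1.04, SE 0.18, adjusted p = 9.47e-06). FGF18 had 66 and 68 against 125 and 119 counts (log2 fold change 0.64, SE 0.22, adjusted p = 0.0138), and lost its call without MET+ replicate 2 and without MET-KO replicate 1 (adjusted p = 0.0804 and 0.112) and with DESeq2 (adjusted p = 0.0810). FGFBP1, a secreted protein that releases FGFs from the matrix, had 1787 and 2010 counts in MET+ and 96 and 60 in MET-KO cells, or 211 ± 6.81 against 7.47 ± 2.75 CPM (SD, n = 2). It was the largest fall of the list, with a log2 fold change of -4.83 (SE 0.14, adjusted p = 1.56e-24). FGF19 and the klotho KL were at 0 in all libraries, and KLB had 3 counts in a single MET+ library.

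GAS6, the ligand of all 3 TAM receptors, had 107 and 161 counts in MET+ and 272 and 254 in MET-KO cells. It was higher in both MET-KO libraries, with a log2 fold change of 0.76 (SE 0.17, adjusted p = 0.000222). PROS1 had 34 and 25 counts in MET+ and 10 and 25 in MET-KO cells, and its log2 fold change of -0.99 (SE 0.45, adjusted p = 0.0608) did not pass the threshold. It did so without MET+ replicate 2 (adjusted p = 0.0180) and without MET-KO replicate 2 (adjusted p = 0.0321).

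Of the ligands that FLT1 binds, VEGFA was lower in MET-KO cells, at 668 and 729 counts in MET+ and 223 and 257 in MET-KO cells (log2 fold change -1.77, SE 0.12, adjusted p = 1.14e-14). Its co-receptor NRP1 was lower too, at 236 and 240 against 97 and 92 counts (log2 fold change -1.56, SE 0.18, adjusted p = 2.88e-09). VEGFA, NRP1 and FLT1 itself were thus all lower in both MET-KO libraries. VEGFB (log2 fold change 0.08, adjusted p = 0.569) and NRP2 (-0.18, adjusted p = 0.336) did not pass the threshold. PGF had 18 and 36 counts in MET+ and 48 and 63 in MET-KO cells (log2 fold change 0.82, SE 0.34, adjusted p = 0.0396). It lies on a stretch of chromosome 14 whose tested genes had a median of -0.53. Without MET+ replicate 1, MET-KO replicate 1 or MET-KO replicate 2 the adjusted p of PGF was 0.235, 0.0656 and 0.258.

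For NTRK2 and RET, which were lower in MET-KO cells, several ligands were higher. BDNF, the ligand of NTRK2, had 15 and 7 counts in MET+ and 292 and 284 in MET-KO cells, with a log2 fold change of 4.47 (SE 0.27, adjusted p = 7.62e-16). It was 5.23 without MET+ replicate 1 and 3.90 without MET+ replicate 2. NTF4, a further ligand of NTRK2, had 4 and 7 counts in MET+ and 19 and 27 in MET-KO cells (log2 fold change 1.82, SE 0.55, adjusted p = 0.00575), and its adjusted p was 0.150 without MET-KO replicate 2 and 0.0573 with DESeq2. NTF3, the ligand of the undetected NTRK3, had 0 counts in both MET+ and 18 in each MET-KO library, and was at least 5.11-fold higher (adjusted p = 1.38e-05). NGFR, a co-receptor of the neurotrophins, had 16 and 16 against 15 and 24 counts (log2 fold change 0.05, SE 0.46, adjusted p = 0.935).

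Of the GDNF family, ARTN had 10 and 16 counts in MET+ and 120 and 103 in MET-KO cells (log2 fold change 2.87, SE 0.32, adjusted p = 3.16e-09). NRTN had 42 and 51 against 113 and 113 counts (log2 fold change 1.06, SE 0.24, adjusted p = 0.000349). Both were higher in cells where RET was at 0 counts, and the co-receptors GFRA1 to GFRA4 had at most 3 counts in any library in either state. GDNF was at 0 in all libraries, and PSPN did not pass the threshold (log2 fold change 0.34, SE 0.29, adjusted p = 0.332). The antisense gene ALKBH7, which had 1530 counts in all, overlaps PSPN. GDF15, which signals through RET and GFRAL, was the most abundant ligand, at 1753 ± 208 CPM in MET+ against 1059 ± 152 CPM in MET-KO cells (SD, n = 2). It was lower in both MET-KO libraries, with a log2 fold change of -0.73 (SE 0.10, adjusted p = 3.80e-07), and GFRAL was at 0 in all libraries.

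PTN, a heparin-binding growth factor linked to ALK, was at 0 in both MET+ libraries and had 327 and 360 counts with the knock-out, at least 97.3-fold higher (adjusted p = 5.05e-19). PTN lies on chromosome 7. Its relative MDK was abundant in both states, with 1415 and 1419 counts in MET+ and 1890 and 2022 in MET-KO cells (log2 fold change 0.23, SE 0.10, adjusted p = 0.0401). The call of MDK was lost without MET+ replicate 2, MET-KO replicate 1 or MET-KO replicate 2 (adjusted p = 0.521, 0.0663 and 0.0685) and with the replicate number as a block (adjusted p = 0.0788). ALKAL1 was at 0 in all libraries and ALKAL2 had at most 2 counts.

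The PDGF ligands PDGFA, PDGFB and PDGFC were higher in MET-KO cells, although PDGFRA and PDGFRB were all but absent from the counts. PDGFD was at 0 in all libraries. PDGFB had 42 and 56 counts in MET+ and 392 and 371 in MET-KO cells (log2 fold change 2.74, SE 0.18, adjusted p = 6.48e-15). PDGFC had 31 and 75 against 234 and 279 counts (log2 fold change 2.06, SE 0.22, adjusted p = 7.94e-10), and its log2 fold change was 1.66 without MET+ replicate 1 and 2.69 without MET+ replicate 2. PDGFA had 388 and 459 against 1141 and 1094 counts (log2 fold change 1.177, SE 0.11, adjusted p = 1.89e-11), on a stretch of chromosome 7 whose tested genes had a median of 0.57. All 3 genes were thus raised in both MET-KO libraries.

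Collagens that DDR1 and DDR2 bind were counted at a low level. COL3A1 had 4 and 5 counts in MET+ and 24 and 26 in MET-KO cells (log2 fold change 2.22, SE 0.56, adjusted p = 0.00109). COL4A2 had 12 and 14 against 1 and 3 counts (log2 fold change -2.85, SE 0.73, adjusted p = 0.00133), and its adjusted p was 0.0939 without MET-KO replicate 1. COL1A1 had 13 and 10 against 13 and 19 counts (log2 fold change 0.24, SE 0.51, adjusted p = 0.718). The collagen genes thus differed in direction, none of them with more than 26 counts in a library.

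The adaptors that many of these receptors share were a list of 30 genes, of which 28 were tested. In MET-KO cells 8 were higher, 7 were lower and 13 did not pass the threshold, a share called of 53.6% beside 54.1% of all genes. GRB2, the adaptor that brings SOS to active receptors, had 616 and 657 counts in MET+ and 777 and 804 in MET-KO cells (log2 fold change 0.08, SE 0.10, adjusted p = 0.519). GAB2 had 357 and 373 counts in MET+ and 72 and 63 in MET-KO cells (log2 fold change -2.66, SE 0.17, adjusted p = 2.88e-15). GRB14, which binds and restrains the insulin receptor, had 56 and 65 against 7 and 16 counts (log2 fold change -2.61, SE 0.39, adjusted p = 7.68e-07). The antisense gene AC107075.1, which had 55 counts in all, overlaps GRB14. SHC2 had 32 and 54 against 20 and 20 counts (log2 fold change -1.31, SE 0.37, adjusted p = 0.00343). GAB2, GRB14 and SHC2 were lower in both MET-KO libraries. DOK1 had 46 and 43 counts in MET+ and 301 and 256 in MET-KO cells (log2 fold change 2.42, SE 0.20, adjusted p = 3.76e-12), and the antisense gene LOXL3 overlaps it. CBLB, a ubiquitin ligase that removes active receptors, had 23 and 20 against 62 and 95 counts (log2 fold change 1.63, SE 0.33, adjusted p = 7.91e-05). SHC3 had 3 and 0 against 23 and 13 counts, a ratio of 10.3 with an exact 95% interval of 3.24 to 52.1 that covers counting error only (adjusted p = 0.000848). It overlaps the gene AL353150.1 on the same strand, which had 121 counts in all.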

How the data were processed

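LoVo RNA was counted in 4 libraries, 2 MET+ and 2 MET-KO. As deposited by the authors, the files hold whole, unnormalised read counts per Ensembl gene, from QuantSeq 3' (FWD) libraries. The submitters' processing notes name bcl2fastq, cutadapt 1.16, FastQC 0.11.7, MultiQC 1.5, STAR 2.5.4a, featureCounts 1.6.2, DESeq2 1.18.1 and GRCh38. The annotation and strand setting are not given in the sources used here. Reads of a gene and its antisense partner therefore cannot be told apart if strand was ignored. The 99 spike-in rows held 0 counts.

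Names and positions came from GENCODE version 29 (58552 of 58825 IDs found) and promoters from RefSeq on GRCh38.p14. Genes were filtered with filterByExpr by group, scaled by TMM and tested for the condition, without other terms, by the quasi-likelihood test (edgeR 4.0.16, R 4.3.3) with Benjamini-Hochberg adjustment. The scripts were tested on simulated counts. Figures used matplotlib 3.10.9.

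The receptors and lists were chosen with earlier results of these data known. All tested or counted receptors are named. Of the ligands and co-receptors, those with the 10 largest called changes in each direction (absolute log2 fold change of at least 1) and the tested ligands of expressed receptors are named, and of the adaptors the 3 largest called changes in each direction, with GRB2 named after its values were seen. Alternatives were DESeq2 1.42.0 (Wald test) and its size factors, library totals, no filter, a minimum of 10 counts per library, a replicate block, a fold limit, other expression limits and each library left out.

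Replicates had a Pearson correlation of log2 CPM of 0.985 and 0.990, and libraries of different groups 0.827 to 0.832. The replicates' differences exceeded sampling noise, so each was kept as a sample. Limits at 3 counts and intervals cover counting error only.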

Additional observations from a re-analysis of the deposited data

How the results depend on the processing

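The number of receptors higher in MET-KO cells (9) was 6 to 9 and that of lower ones (6) was 4 to 6 under the alternatives other than leaving out a library. With DESeq2 they were 6 and 5, FGFR3, LTK, MERTK and TYRO3 no longer passing, and with at least 10 counts in every library they were 7 and 4, since AXL, LTK, NTRK2 and RET could not be tested. Leaving out each library gave 6 to 8 higher and 5 to 7 lower receptors. DESeq2 called 13 ligands and co-receptors higher, CSF1, FGF18, MDK, NTF4, PGF and WNT11 no longer passing (adjusted p = 0.112, 0.0810, 0.0963, 0.0573, 0.151 and 0.164). For ligands and co-receptors the counts were 13 to 19 higher and 5 to 7 lower over all alternatives, and leaving out each library gave 14 to 17 higher and 5 to 7 lower. Receptors expressed in either state numbered 18 to 21, the lowest with a limit of 2 CPM and the highest without MET-KO replicate 1. With library totals as the only scaling the median of all genes moved from 0.01 to 0.11 and the higher share of all calls from 50.3 to 59.2%. All genes called numbered 5760 with DESeq2 and 6289 to 7083 with each library left out, beside 7467.

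The replicate numbers were entered as a block, although the pairing has no stated origin and the deviations of equally numbered libraries had a correlation of -0.02 over genes. With the block 9 receptors were higher and 6 lower, 17 ligands and co-receptors were higher (MDK and WNT11 lost) and 6 lower, and 7055 genes were called in all.

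Values that changed sign belong to 4 genes that passed no threshold. With each library left out, the log2 fold change of LMTK2 was -0.258 to 0.0264 (positive without MET+ replicate 2) and that of LMTK3 was -1.22 to 1.40 (positive without MET+ replicate 2 and, at 0.51, without MET-KO replicate 1, and also 0.0034 with library totals). COL1A1 gave -0.0579 to 0.56, with -0.01 without MET-KO replicate 2 and the lowest value without MET+ replicate 2. NGFR gave -0.27 to 0.31, with -0.07 without MET+ replicate 2 and the lowest value without MET-KO replicate 2. The causes were not tested. Of the other values of single receptors, 176 kept direction and side of the threshold, 14 lost the call and 1 gained it, and of the ligands and co-receptors 290 kept it, 25 lost it and 4 gained it. Where leaving out a library leaves a group with 1 sample, that sample is assumed to vary like the other group.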
